A study of Mus musculus with 15 samples.

Results

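Open chromatin regions that had a DNase-seq peak in exactly 7 of 8 mouse libraries are described here, grouped by the 1 library that lacked a peak. All peaks of the 8 deposited lists were merged, with touching or overlapping peaks joined, and a region counted as open in each library that had a called peak there. Of 237612 merged regions, 6019 were open in exactly 7 lists, which is 2.53% of all regions. A further 20859 regions were open in all 8 lists and 5368 in exactly 6. These peaks both chose the regions and gave their ranks, so counts and ranks are given as a description with no test.

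DNase-seq maps stretches of chromatin that nucleases can reach, which include promoters, enhancers and binding sites of insulator proteins. Regions open in nearly every cell type are usually promoters of broadly used genes or sites of the insulator protein CTCF, whereas enhancers are more often restricted to a few cell types. Acetylation of histone H3 at lysine 27 (H3K27ac) marks active promoters and enhancers.

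The DNase-seq libraries, 1 for each group, were made from preSertoli cells of E13.5 and of E15.5 fetal testis (embryonic days), from ES cells (embryonic stem cells), from skin fibroblasts in culture, and from whole liver, kidney, heart and brain of adults. Germ cells of the fetal testis are enclosed by preSertoli cells, its supporting cells. These were sorted from male embryos heterozygous for a Sox9-ECFP reporter, with a C57BL/6J father and a CD-1 mother, and were frozen before use. The other 6 libraries were from C57BL/6J, as a line of ES cells named JM8 grown without feeders, fibroblasts derived from adult mice (a primary culture in one label and a cell line in another), and flash-frozen tissues in which many cell types are mixed. For H3K27ac there were 2 ChIP and 2 input libraries, each from pooled sorts at E13.5, and for RNA 3 pools of embryos at E15.5. Endogenous nucleases cut the preSertoli chromatin and added DNase I the rest, so cell type, strain cross and digestion cannot be told apart between preSertoli and other lists. In whole tissue, fewer open cells and less opening per cell cannot be told apart either, and a missing peak does not show closed chromatin.

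The lists held from 62218 peaks (fibroblasts) to 96536 peaks (ES cells), and the reads behind them are unknown. The Sertoli label was checked in the RNA. All 8 Sertoli markers reached 1 CPM (a count scaled to its library's total) in all 3 libraries, with means from 128 CPM for Dmrt1, a transcription factor of testis fate, to 3180 ± 259 CPM for Clu, a secreted chaperone (SD, n = 3). All 3 markers of steroid-making Leydig cells were present as well, with means from 223 to 382 CPM, and their summed level ranged from 663 to 1085 CPM over the libraries, against 7155 to 8313 CPM for the Sertoli markers. The germ cell markers summed to 20.7 to 31.8 CPM, the endothelial ones to 23.1 to 23.7 CPM and the granulosa ones to 1.14 to 2.56 CPM. Their part in the results below was not tested, and RNA from the cells used for DNase-seq was not analysed here.

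Fibroblasts and liver lacked most of the regions. Fibroblasts lacked a peak in 2205 regions, which is 36.6% of the regions open in exactly 7 lists, and liver in 1303, which is 21.6%. ES cells followed with 576 regions, then E15.5 preSertoli cells with 537, E13.5 preSertoli cells with 531, brain with 414 and heart with 352. Kidney lacked 101 regions, the fewest of the 8 lists. The same counts can be read as a rate, by asking what share of the regions open in the other 7 lists had no peak in the library named. Fibroblasts lacked 9.56% of such regions (Wilson 95% interval 9.19 to 9.95), liver 5.88% (5.58 to 6.20), ES cells 2.69% (2.48 to 2.91) and kidney 0.482% (0.397 to 0.585). The rates for E13.5 (2.48%; 2.28 to 2.70) and E15.5 preSertoli cells (2.51%; 2.31 to 2.73) differed by less than their intervals. All intervals here cover counting error only, treat regions as independent and contain no variation between animals or cultures.

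**Figure D1:**
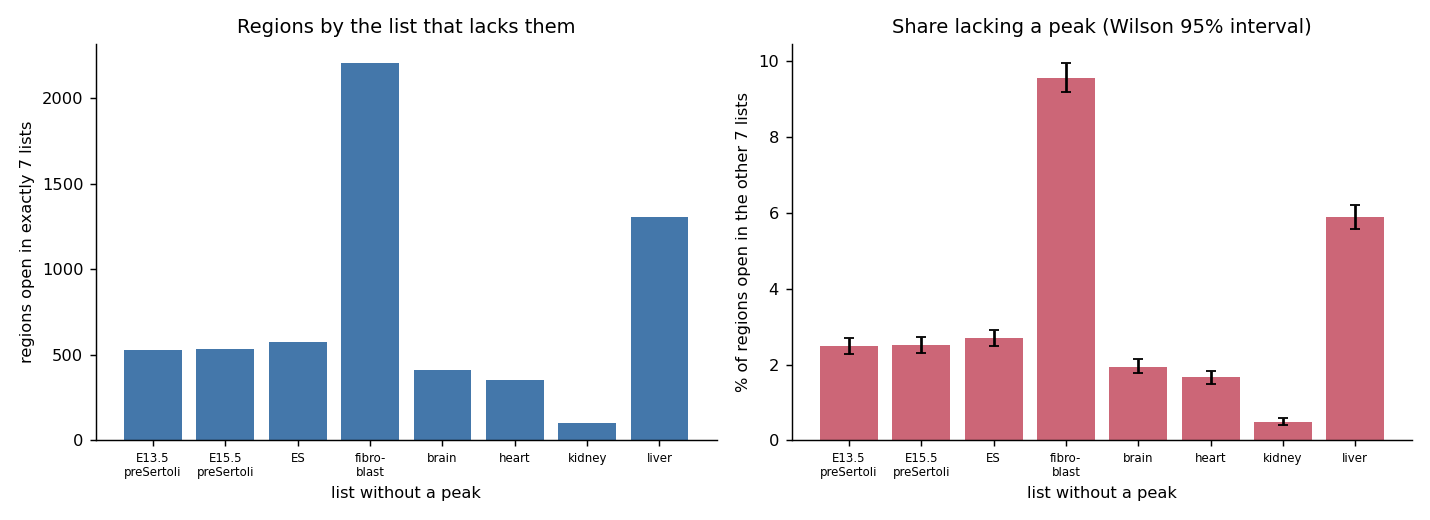
Left, number of regions open in exactly 7 lists by the list without a peak. Right, the percent of regions open in the other 7 lists that had no peak in the list named, with Wilson 95% intervals as error bars. Fibroblasts (2205 regions) and liver (1303) stand above all others and kidney (101) below them.

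The counts were set beside the lengths of the lists. The fibroblast list was the shortest, with 62218 peaks, but the brain list, with 63330, lacked 414 regions, and the ES list, the longest, lacked 576. When every list was cut to the length of the shortest, liver lacked 1292 regions and fibroblasts 1259, so the order of these lists turned, and ES cells rose to 862 while brain stood at 206. When only peaks above the 50th percentile of each list were used, fibroblasts again lacked the most, with 1126, ahead of liver with 993. Kidney remained lowest in both cases, with 88 and 46 regions.

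Regions missing from 1 list were weaker than regions open in all 8. Strength was measured by the percentile of the best peak within its own list, from the authors' signal height, so 50 is the middle of a list. The median over lists was 57.2 for regions open in exactly 7 lists (quartiles 46.2 and 68.3), against 82.7 for regions open in all 8 (quartiles 69.7 and 92.2). At their weakest list, regions open in exactly 7 stood at the 21.3rd percentile as a median and those open in all 8 at the 63.7th. Liver-missing regions had the highest median over lists (62.2) and E13.5-missing regions the lowest (50.0). Fibroblasts and liver were also the weakest lists among regions open in all 8. There, fibroblasts held the lowest percentile in 25.9% of regions, liver in 19.7% and E15.5 preSertoli cells in 17.4%, against 3.52% for kidney.

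The rule needs a called peak, so its threshold lies at the bottom of each list. Just outside it, 342 regions open in all 8 lists had a fibroblast peak below the 10th percentile and 337 had such a liver peak. For the other lists these numbers ran from 73 in kidney to 150 in E13.5 preSertoli cells. Peaks must also touch or overlap to be joined, and some regions fell just short of that. The nearest peak of the missing list lay 1 bp from a liver-missing region (chr9:57610447-57610899), 6 bp from a fibroblast-missing one (chr13:54417729-54419260) and 9 bp from an ES-missing one (chr1:189476353-189476965). All positions are in mm9.

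Which lists were weak depended on which list was missing. In regions that liver lacked, heart and kidney peaks stood at median percentiles of 43.0 each, whereas E13.5 preSertoli and ES peaks stood at 74.6 and 75.05. Heart was the weakest list in 29.0% of these regions and kidney in 27.9%. The kidney-missing regions showed the widest spread between lists, with liver at a median percentile of 21.1 and heart at 34.7, against 69.6 in ES cells and 68.8 in E13.5 preSertoli cells. Heart-missing regions had medians of 34.1 in liver, 44.9 in brain and 48.1 in kidney, and 74.9 in ES cells, which were the strongest list in 43.5% of them. Brain-missing regions followed the same order, with liver at 41.2, heart at 44.7 and ES cells at 69.3. Where 1 adult tissue lacked a peak, the other adult tissues thus held the lower percentiles.

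Regions missing a preSertoli stage had another profile, in which the other stage was among the weaker lists. In E13.5-missing regions the E15.5 preSertoli peak stood at a median percentile of 39.6, ES cells at 37.7 and fibroblasts at 38.6, against 60.1 to 60.9 in brain, heart and kidney. Brain, heart or kidney was the strongest list in 19.2%, 27.9% and 23.4% of these regions. In E15.5-missing regions the E13.5 preSertoli peak stood at 42.3, fibroblasts at 45.2 and ES cells at 48.6, against 59.6 to 60.7 in brain, heart and kidney. The other stage was the weakest list in 23.9% of E13.5-missing and in 26.8% of E15.5-missing regions. ES-missing regions were strongest in heart (71.4) and stood at 63.2 and 64.8 in E13.5 and E15.5 preSertoli cells. Fibroblast-missing regions were the most even, with medians from 57.0 to 61.6 in all lists but liver (49.1).

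**Figure D2:**
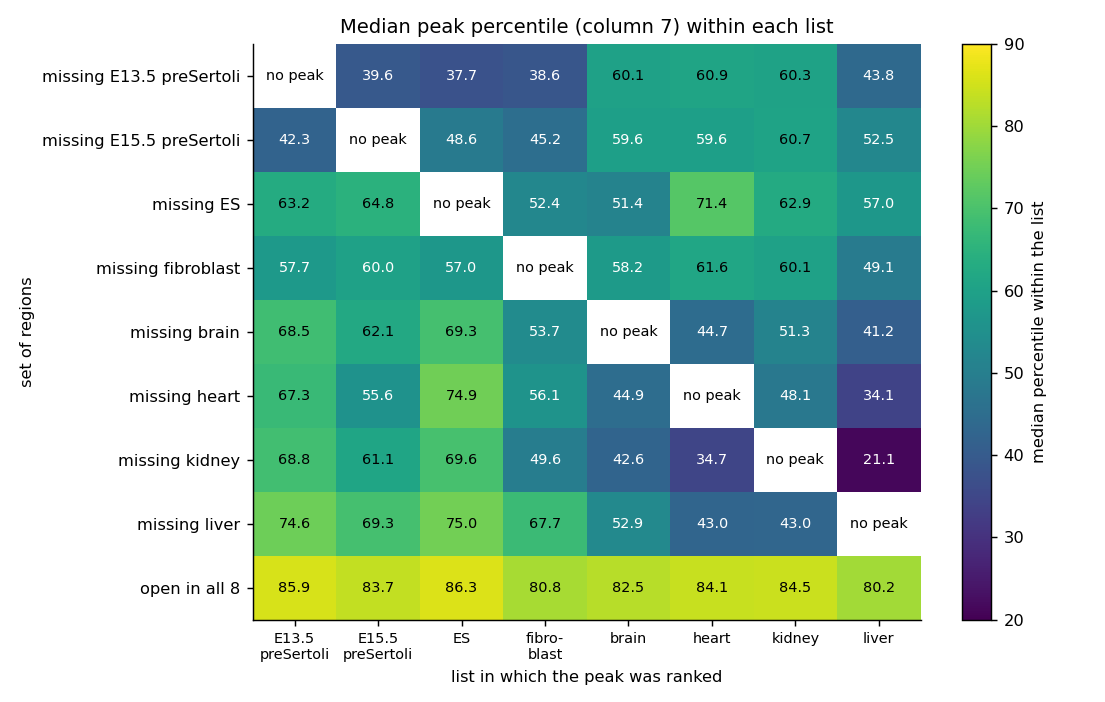
Median percentile of the best peak within each list (columns) for the regions missing from 1 list (upper 8 rows) and for regions open in all 8 (bottom row). The colour gives the percentile on a scale of 20 to 90, and white cells mark the list without a peak. Liver-missing regions stand at 43.0 in heart and in kidney and at 75.05 in ES cells, while regions open in all 8 stand between 80.2 and 86.3.

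Most regions had no called peak of the missing list close by. Distance to a called peak does not show how near the signal at the region itself came to being called. The nearest peak of the missing list lay at a median distance of 6404 bp (quartiles 2205 and 17490 bp). It lay within 500 bp of 354 regions, or 5.88% (interval 5.31 to 6.504), and within 1000 bp of 752, or 12.5%. E15.5-missing regions lay farthest from a peak of their list, at a median of 13573 bp, and 4.47% of them had one within 500 bp. The median distance was 9891 bp for heart, 7479 bp for liver and 5965 bp for fibroblasts, and it was 4424 bp for E13.5 preSertoli cells, 4319 bp for ES cells and 4253 bp for kidney. In regions open in exactly 6 lists, the distance to an E15.5 peak, where that was one of the missing lists, had a median of 9428 bp.

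The regions were compact. Their median width was 565 bp, against 1034 bp for regions open in all 8 lists and 316 bp for all merged regions. E13.5-missing (405 bp), E15.5-missing (440 bp) and fibroblast-missing regions (468 bp) were the narrowest, while ES-missing (747 bp), heart-missing (770 bp), brain-missing (836 bp), kidney-missing (847 bp) and liver-missing regions (942 bp) were wider. In 4796 regions (79.7%) each of the 7 lists gave a single peak, and in 5566 (92.5%) at least 1 base was covered by peaks of all 7. That share was lowest for brain-missing regions, at 79.2%. A region open in all 8 lists lay within 5000 bp of 23.4% of them, against 18.8% of all merged regions not open in all 8. This share ran from 11.2% for E15.5-missing to 34.5% for brain-missing regions.

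H3K27ac was not used to choose the regions, and its frequency differed by missing list. Of all, 1354 of the 6019 regions (22.5%; interval 21.5 to 23.6) overlapped an H3K27ac domain of E13.5 preSertoli cells by at least 1 bp, against 55.2% (54.5 to 55.9) of regions open in all 8 and 16.1% of all merged regions. Brain-missing regions (38.4%; 33.8 to 43.2) and ES-missing regions (36.8%; 33.0 to 40.8) overlapped most often, followed by liver-missing (30.5%; 28.1 to 33.1) and heart-missing regions (22.7%; 18.7 to 27.4). Kidney-missing (18.8%; 12.4 to 27.5) and fibroblast-missing regions (16.2%; 14.8 to 17.8) lay near the share of all merged regions. E15.5-missing (14.0%; 11.3 to 17.2) and E13.5-missing regions (9.98%; 7.71 to 12.8) overlapped least. These shares rest on 1 deposited list of domains with no value per domain, so there is no measure of spread between samples.

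All regions except the E13.5-missing ones had a DNase peak at the stage where H3K27ac was measured, and their shares still differed. Fibroblast-missing regions, open at both preSertoli stages, exceeded those missing either stage (12.0%) by 4.25 percentage points (Newcombe 95% interval 1.69 to 6.67). That 12.0% includes the E13.5-missing regions. E15.5-missing regions alone stood at 14.0% (11.3 to 17.2), an interval that overlaps that of fibroblast-missing ones (14.8 to 17.8). Brain-missing regions exceeded fibroblast-missing ones by 22.2 points (17.3 to 27.2), ES-missing ones by 20.6 (16.4 to 24.8) and liver-missing ones by 14.3 (11.4 to 17.3). Kidney-missing regions exceeded fibroblast-missing ones by 2.58 points, with an interval from -4.04 to 11.4. The order of the missing lists depended on the threshold. With peaks above the 50th percentile only, ES-missing regions overlapped in 24.1% of cases, against 66.1% for brain-missing and 48.4% for heart-missing regions. E15.5-missing regions, among the lowest with all peaks, then stood at 39.7%. That was above kidney-missing (39.1%), liver-missing (36.8%), ES-missing, fibroblast-missing (21.1%) and E13.5-missing regions (18.2%).

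**Figure D3:**
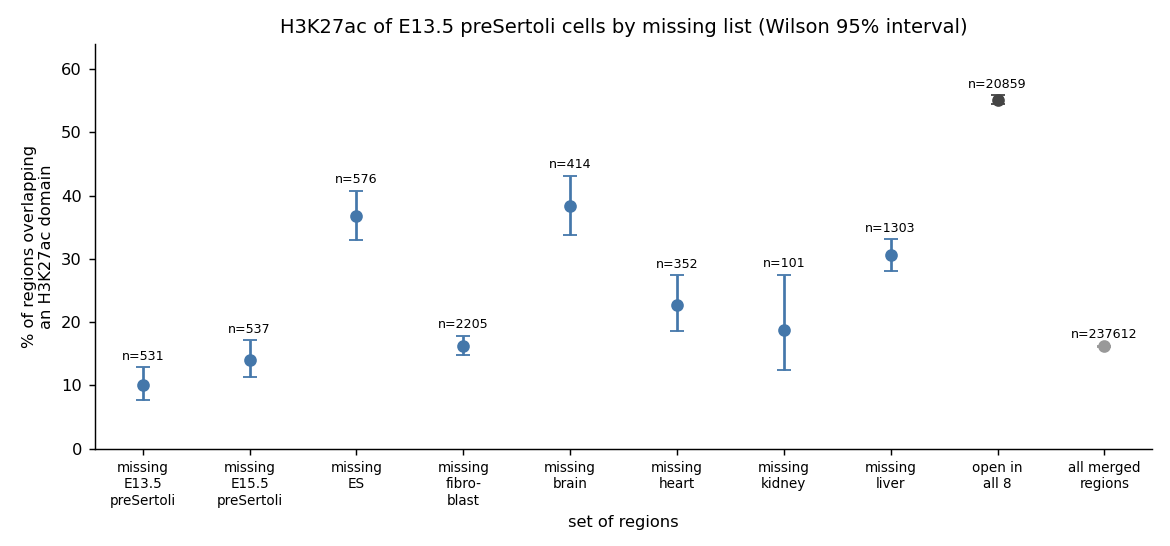
Percent of regions overlapping an H3K27ac domain of E13.5 preSertoli cells, for each missing list, for regions open in all 8 lists and for all merged regions. Points are shares, error bars Wilson 95% intervals, and n is the number of regions. Brain-missing (38.4%) and ES-missing regions (36.8%) stand highest among the regions open in exactly 7 lists, and E13.5-missing regions (9.98%) lowest.

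Among regions open in all 8 lists, weaker and narrower ones carried H3K27ac less often. The shares were therefore also compared within bins of strength and, separately, within bins of width. Neither comparison held both alike. The missing lists did not all follow that order of weaker and stronger regions. From the 20th to the 40th median percentile, liver-missing (29.0%), ES-missing (27.9%) and brain-missing regions (26.7%) lay above the 12.96% of regions open in all 8, and E13.5-missing regions stood at 15% (9.70 to 22.5), above their shares in the next bins. Among regions with a median percentile from 40 to 60, brain-missing regions overlapped in 37.5% of cases, ES-missing in 26.2% and liver-missing in 21.9%, all above the 16.4% of regions open in all 8. The difference was 21.1 points for brain (14.3 to 28.3), 9.79 for ES cells (4.04 to 16.4) and 5.44 for liver (1.57 to 9.69). Fibroblast-missing (12.6%), E15.5-missing (9.62%) and E13.5-missing regions (7.83%) lay below it in that bin. From 60 to 80 the ES-missing (44.5%), brain-missing (44.4%) and liver-missing regions (32.3%) again lay above the 26.0% of regions open in all 8, and E13.5-missing (8.62%) and fibroblast-missing regions (17.5%) below it. Heart-missing (29.6%), E15.5-missing (21.9%) and kidney-missing regions (21.7%) differed from it there by less than their intervals. Above 80 the order turned, since regions open in all 8 reached 80.3%, against 54.8% for ES-missing, 52.3% for fibroblast-missing and 50.6% for liver-missing regions.

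Ranking by the E13.5 peak alone gave differences that turned with the bin. From the 60th to the 80th percentile of the E13.5 list, ES-missing (44.4%) and brain-missing regions (43.6%) exceeded the 28.7% of regions open in all 8 by 15.7 and 14.9 points, with intervals of 8.70 to 23.0 and 7.09 to 23.0. Liver-missing regions (26.0%) differed from them by -2.73 points, with an interval from -6.67 to 1.56. Fibroblast-missing regions (15.6%) lay 13.1 points lower. Their difference from regions open in all 8 was -1.31 points from the 20th to the 40th percentile (-5.02 to 2.83). It was -1.76 from the 40th to the 60th (-4.85 to 1.62). For E15.5-missing regions it was -1.33 (-6.05 to 5.08) and -2.67 (-7.59 to 3.96) in the same bins. From the 60th to the 80th it was -7.89 (-14.3 to 0.325). Above the 80th percentile the differences were -36.3 points for fibroblast-missing and -61.0 for E15.5-missing regions. From the 20th to the 40th percentile, liver-missing regions (19.8%) lay 8.04 points above the 11.7% of regions open in all 8 (0.854 to 17.3), and from the 40th to the 60th (19.7%) 3.50 points above them, with an interval from -1.79 to 9.89. Above the 80th percentile, ES-missing (56.2%), brain-missing (43.4%) and liver-missing regions (42.5%) all lay below the 74.1% of regions open in all 8. The differences there were -17.9 points for ES cells (-26.8 to -9.31), -30.7 for brain (-39.7 to -21.1) and -31.5 for liver (-35.9 to -27.0307).

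Width gave a second view. Of regions over 300 and up to 600 bp wide, 7.87% of those open in all 8 lists overlapped H3K27ac. Brain-missing (21.7%), ES-missing (17.2%) and liver-missing regions (13.1%) of that width lay higher, by 13.9, 9.34 and 5.24 points. The fibroblast-missing (7.47%), E13.5-missing (8.31%) and E15.5-missing regions (8.45%) of that width differed from regions open in all 8 by less than their intervals. Of regions over 600 and up to 1200 bp wide, 57.6% of those open in all 8 overlapped, and every missing list stood lower, from 21.9% for E13.5 to 46.2% for brain.

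**Figure D4:**
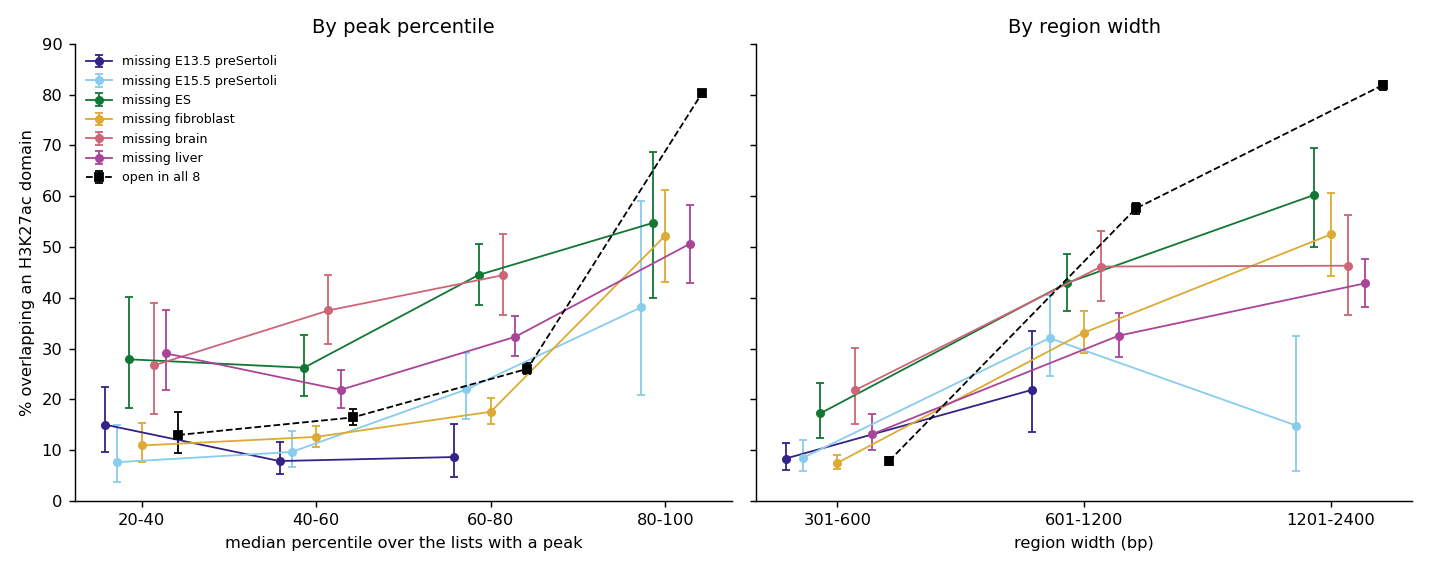
Percent of regions overlapping an H3K27ac domain, in bins of the median peak percentile (left) and of region width (right), for 6 missing lists and for regions open in all 8 (black squares, dashed). Error bars are Wilson 95% intervals, bins under 20 regions are left out, and points are shifted sideways for legibility. Brain-missing and ES-missing regions lie above regions open in all 8 from 40 to 60 and from 60 to 80, and below them above 80, where only ES-missing regions are drawn of the pair.

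Overlap with H3K27ac was more frequent in regions that had a peak of the missing list nearby, for several lists. For E13.5, of the 40 regions with an E13.5 peak within 500 bp, 21 overlapped a domain (52.5%; 37.5 to 67.1), against 32 of the 491 regions farther away (6.52%; 4.65 to 9.06). Of all 53 overlapping regions, 28 (52.8%) lay in a domain that also held a region open in all 8 lists. That share was 12.0% in E15.5-missing, 13.7% in ES-missing and 24.9% in fibroblast-missing regions. Regions with a near peak and those without one also had intervals apart for brain (62.1% and 36.6%), E15.5 (33.3% and 13.1%) and fibroblasts (32.8% and 15.2%). The intervals overlapped for heart (42.1% and 21.6%), ES cells (40.9% and 36.5%), liver (38.7% and 30.1%) and kidney (25% and 18.3%).

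The preSertoli stages were compared directly. E13.5-missing regions overlapped H3K27ac less often than E15.5-missing ones, by 3.99 points (interval -7.90 to -0.0798, E13.5 minus E15.5). Without chromosome X, a setting tried once the values had been seen, 9.49% of E13.5-missing and 11.1% of E15.5-missing regions overlapped, and the difference of -1.65 points had an interval from -5.42 to 2.08. With lists of equal length E13.5-missing regions stood at 10.4% and E15.5-missing ones at 21.6%, and with peaks above the 50th percentile at 18.2% and 39.7%.

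Chromosome X was over-represented among E15.5-missing regions. It held 34 of the 537, or 6.33%, against 0.753% of E13.5-missing regions and 1.34% of all merged regions. Of the chromosome X regions open in the other 7 lists, 8.27% lacked an E15.5 peak (34 of 411; interval 5.98 to 11.3), against 2.40% on the autosomes (2.20 to 2.61). The E13.5 list lacked 1.05% on X (4 of 381; 0.409 to 2.67) and 2.51% on the autosomes. No other list had an interval on X above that on its autosomes. The E15.5 list lacked 10.7% on X and 2.44% on the autosomes with lists of equal length, and 13.8% and 2.43% with peaks above the 50th percentile (both settings added after seeing the data). Under these settings a region counted as lacking E15.5 may have a weaker E15.5 peak that was cut.

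The 34 regions were spread over the chromosome and lay in 29 different windows of 1 Mb. They were relatively strong at E13.5, with a median percentile of 62.2 in the E13.5 list, against 41.4 for the 503 autosomal E15.5-missing regions. Of them, 19 (55.9%; 39.5 to 71.1) overlapped E13.5 H3K27ac, against 11.1% (8.67 to 14.2) of the autosomal ones. H3K27ac was also more frequent on X in regions open in all 8 lists, at 79.0%, against 54.8% on the autosomes. It marked 12 of 36 fibroblast-missing regions on X (33.3%, against 16.0% on the autosomes) and 10 of 15 liver-missing ones (66.7%, against 30.1%). For heart it was 4 of 8, for E13.5 3 of 4, for brain 2 of 2 and for ES cells 2 of 6. The ES share on X (33.3%) lay below the 36.8% on the autosomes. The whole E15.5 list held few X peaks (1.23% of its peaks, against 1.38% at E13.5 and 1.49% to 1.79% elsewhere). Its part in the excess of E15.5-missing regions on X was not tested. The preSertoli cells came from male embryos, and the labels give no sex for the other libraries.

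**Figure D5:**
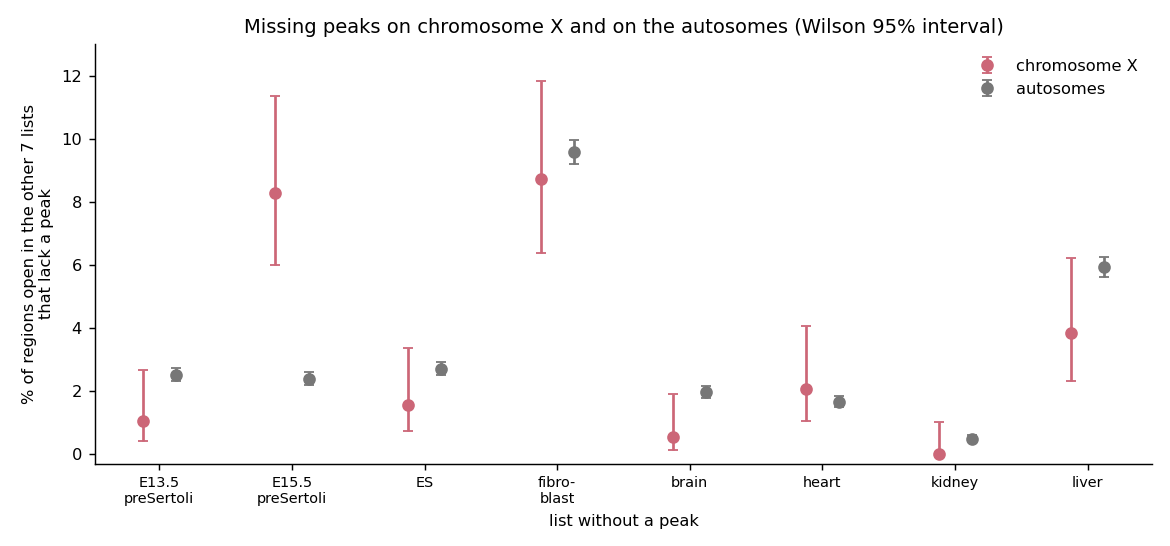
Percent of regions open in the other 7 lists that had no peak in the list named, on chromosome X (red, left of each pair) and on the autosomes (grey). Error bars are Wilson 95% intervals. E15.5 preSertoli cells stand at 8.27% on X and 2.40% on the autosomes, the only list whose X interval lies above its autosomal one.

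Some regions missing from a list lay in runs, and the share in runs was highest for fibroblasts. A run was counted where consecutive regions lacked a fibroblast peak and no fibroblast peak lay between them. Of the 2205 regions, 287 (13.02%) lay in runs of 2 or more, and 17 runs held 3 or more. The share in runs was 9.75% for liver, with 7 runs of 3 or more, 9.09% for heart, 8.45% for brain, 7.12% for ES cells, 5.03% for E15.5, 3.96% for kidney and 2.26% for E13.5. Most regions of every list thus stood alone. Fibroblasts also had the most regions and the shortest list, and the share in runs expected from these was not computed.

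The longest fibroblast runs adjoined each other on chromosome 11. One run of 5 regions spanned chr11:54600301-54693240 and the next, also of 5, chr11:54716022-54788052, with 1 interval without a fibroblast peak of 359586 bp and another of 105119 bp. Merged regions of the other lists numbered 51 and 42 in these intervals. The strongest of all fibroblast-missing regions lay here. It was chr11:54673523-54674675, at percentiles of 98.6 in E13.5 and 99.3 in E15.5 preSertoli cells, 99.8 in ES cells, 97.5 in brain, 99.02 in heart, 99.1 in kidney and 98.1 in liver. It overlapped an H3K27ac domain of 2000 bp. The next strongest, chr11:54769103-54769990, was at 96.6 or more in all 7 lists and lay in a domain of 10000 bp. These percentiles are near the top of every list but that of fibroblasts, which had no peak within 21562 bp of the first and 31618 bp of the second.

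By windows of 1 Mb, fibroblasts lacked 10 of 14 regions open in the other 7 lists at 48 to 49 Mb of chromosome 11 (chr11:48000001-49000000; 71.4%, interval 45.4 to 88.3), 6 of them with H3K27ac. The fibroblast list held 6 peaks in that window, against 23 to 41 in the other lists. Windows are named, here and for brain, because they held the most regions missing from the list. The interval does not account for that choice. Fibroblasts also lacked 10 of 23 at chr11:54000001-55000000 (43.5%) and 9 of 35 at chr13:23000001-24000000 (25.7%), and 8 of those 9 carried H3K27ac. A run of 4 regions, chr16:32419401-32500190, had a median percentile of 86.5 and lay in 117612 bp without a fibroblast peak. After these came chr19:21851565-21853828, at a lowest percentile of 96.4, in a domain of 4800 bp. In all, 26 of the 2205 fibroblast-missing regions stood at or above the 80th percentile in every other list. The numbers were 3 of 537 for E15.5, 1 of 576 for ES cells, 1 of 1303 for liver and 0 for the remaining missing lists. Of the 20859 regions open in all 8 lists, 6616 did so in every list.

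One brain run was as long. It held 5 regions over chr7:111367078-111614321, within 301975 bp without a brain peak, and 3 of them carried H3K27ac. In the window chr7:111000001-112000000 brain lacked 6 of the 8 regions open in the other 7 lists, and its list held 3 peaks there, against 11 to 25 in the others. The strongest brain-missing regions lay elsewhere, at chr2:84776567-84777295 (lowest percentile 71.8), chr6:55058229-55058803 (69.7) and chr5:65196510-65197915 (67.1). The first and last of these carried H3K27ac, the last in a domain of 6800 bp.

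The 2 strongest E15.5-missing regions were among the highest peaks of most other lists and carried no H3K27ac. The region chr2:22442682-22446212 stood at the 97.6th percentile in E13.5 preSertoli cells, 99.87 in ES cells, 88.8 in fibroblasts, 99.70 in brain, 99.9965 in heart, 99.9924 in kidney and 99.9856 in liver. The region chr1:24618197-24623192 stood at 97.1, 99.88, 87.3, 98.4, 99.9979, 99.9896 and 99.9925 in the same lists. Both are several kilobases wide, at 3531 and 4996 bp, and the nearest E15.5 peak lay 31257 and 17458 bp away. They were 2 of the 3 regions open in exactly 7 lists whose median percentile reached 99, against 414 regions open in all 8 and 0.176% of all merged regions. Of those 414, 394 carried H3K27ac. The next were chr4:79648211-79651272 (lowest percentile 80.1) and chr12:98299541-98300191 (77.0), with no E15.5 peak within 860827 and 906898 bp, and neither carried H3K27ac. The fifth, chr15:55388573-55389527 (75.4), lay in a domain of 2800 bp. No filter for repeated or poorly mappable sequence was applied here, and the part of such sequence in these peaks was not tested.

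E13.5-missing regions reached lower ranks. The strongest, chr5:137408688-137409434, stood at 85.8 in E15.5 preSertoli cells, 70.0 in ES cells, 78.1 in fibroblasts, 72.9 in brain, 84.7 in heart, 79.5 in kidney and 79.97 in liver, with an E13.5 peak 488 bp away. The next were chr17:87443705-87444160 (lowest percentile 63.9), chr17:13744867-13745298 (61.0) and chr8:75843402-75843829 (55.6). None of these 4 carried H3K27ac. The fifth, chr4:129348713-129349102 (53.1), did, and an E13.5 peak lay 191 bp from it.

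Over all 576 ES-missing regions, the median percentile over lists was 61.4, and the strongest of them ranked higher. The first, chr8:14992104-14993285, stood between 82.0 in E13.5 preSertoli cells and 94.5 in liver, with an ES peak 203 bp away. After it came chr12:16625212-16626216 (lowest percentile 79.8) and chr7:17602301-17602976 (79.5), and none of these 3 carried H3K27ac. The strongest with the mark was chr17:53726081-53727524 (75.4), in a domain of 2600 bp. The leading liver-missing region, chr4:148959983-148962144, stood at 99.4 in fibroblasts, 97.5 in ES cells and 84.2 in kidney and carried no H3K27ac. It was followed by chr11:43341593-43343089 (76.6, in a domain of 2000 bp) and chr11:43649284-43650426 (75.6, without a domain).

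Heart-missing and kidney-missing regions completed the set. The strongest heart-missing region was chr5:145306255-145307479, at 96.3 in ES cells and 73.4 in liver, without H3K27ac. The next were chr5:93472692-93474736 (lowest percentile 71.4), in a domain of 2800 bp, and chr11:87591394-87592892 (65.3), without one. Kidney-missing regions were led by chr13:47217830-47218614, at 51.6 in brain and 80.02 in E13.5 preSertoli cells, in a domain of 3200 bp. It was followed by chr5:131333627-131335438 (50.0) and chr15:82036595-82038669 (49.8), neither with H3K27ac. The lowest percentile of the leading kidney-missing region was thus below those of the leading regions of all 7 other missing lists.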

How the data were processed

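DNase-seq peaks, H3K27ac domains and RNA levels were taken as deposited by the authors. Per the submitters' processing notes, the tools were RSEM 1.2.0 and Bowtie 0.12.7 after CASAVA 1.8.2 for RNA, SICER and Bowtie after CASAVA 1.8.2 for ChIP, and SAMtools, bedtools and BWA 0.6.1-r104 for DNase-seq, on mm9. The DNase peak caller is not given in the sources used here, nor is its threshold. Every deposited peak has the authors' score (highest 1000), signal height and −log10 p (1.3 to 16). These columns have no header and were read from their values. Signal height ranked peaks within a list, with ties sharing a rank, and the score followed it, with ties at 1000. The deposited RNA table holds square roots of scaled expected counts, per the file headers and the submitters' processing notes. They were squared and scaled to CPM.

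Peaks were merged in Python 3.11.15 and the number of regions checked with bedtools 2.31.1. Merging and overlap were tested on simulated data. The 28586 H3K27ac domains were read as whole windows of 200 bp. Shares carry Wilson and differences Newcombe 95% intervals, with no p-values. Bins hold at least 20 regions. Regions are named by their lowest percentile over the 7 lists, 5 for each missing preSertoli stage and 3 for the others, plus the best with H3K27ac. The regions and comparisons were chosen with earlier results of these data known. No genome or annotation of mm9 was used, so regions carry no gene names or sequence. No filter for repeated or poorly mappable sequence was applied. Alternatives were another joining gap, list length, peak threshold, overlap rule and ranking column. Regions with a near peak of the missing list, or chromosome X, were also left out.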

Additional observations from a re-analysis of the deposited data

How the results depend on the processing

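Joining peaks across 100 bp, asking for a base covered by all 7 lists, leaving out regions with a near peak of the missing list, or leaving out chromosome X kept every count within 1.5 times. Ranking by the score moved no median percentile by more than 0.0251. With lists of equal length, fibroblast-missing regions numbered 1259 and brain-missing ones 206, and H3K27ac shares moved to 21.6% (E15.5), 31.1% (ES), 18.8% (fibroblast), 46.1% (brain), 28.5% (heart) and 59.1% (regions open in all 8). With peaks above the 50th percentile only, 3508 regions were open in exactly 7, with 181 missing E13.5, 316 ES, 1126 fibroblast, 188 heart and 46 kidney. The H3K27ac shares were then 18.2% (E13.5), 39.7% (E15.5), 24.1% (ES), 21.1% (fibroblast), 66.1% (brain), 48.4% (heart), 39.1% (kidney), 36.8% (liver) and 72.1% (regions open in all 8), and 13.8% of X regions lacked E15.5. Without near peaks the E13.5-missing share was 6.52%. With at least 50% of a region covered, fibroblast-missing regions stood at 14.6% and regions open in all 8 at 53.4%, and with domains within 500 bp the last stood at 56.0%. Without chromosome X the E15.5-missing share was 11.1%. The cause of these moves was not tested. Changes of list length and threshold also change which regions are members. No paired analysis was possible because no comparison here is between numbered replicates. Depth behind each list is unknown, so a closed region and a peak missed at low depth cannot be told apart.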

Other observations

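Regions open in exactly 6 lists were counted by the pair of lists that lacked them, with no expected count set beside them. Fibroblasts were one of the missing lists in 2273 of these regions and liver in 2036. Of 5368 such regions and 28 possible pairs, heart with liver was the most frequent missing pair, with 532 regions, followed by E13.5 preSertoli cells with fibroblasts (531), ES cells with fibroblasts (435), fibroblasts with liver (419) and kidney with liver (381). Both preSertoli stages were missing from 369 regions, the sixth most frequent pair. Of these 369, 13.01% (9.95 to 16.8) overlapped H3K27ac, an interval that overlaps those of the regions missing E13.5 alone (7.71 to 12.8) and E15.5 alone (11.3 to 17.2). Fibroblast-and-brain-missing (37.0%) and brain-and-liver-missing regions (34.9%) carried the mark most often among the 8 most frequent pairs, and E13.5-and-fibroblast-missing regions least (7.72%). Among all 28 pairs the highest share was that of the 184 ES-and-brain-missing regions (50%; 42.8 to 57.2).

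The windows of 1 Mb with most E15.5-missing regions included chr9:3000001-4000000. E15.5 lacked 4 of 14 regions open in the other 7 lists there, all 4 with H3K27ac. Repeated or poorly mappable sequence was not filtered out in this window either.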
